A study of Mus musculus with 8 samples.

Results

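Retinoic acid given alone was set against its control in the lungs of young mice, with 2 arrays titled RA and 2 titled Dil. These 4 arrays were chosen by their titles from the 8 of the series, each of which measured total RNA of whole lung on an Affymetrix mouse expression array. The mice of the RA group received retinoic acid at 3 days of age, and those of the Dil group are taken here to have received oil, since oil with saline is the only arm that no other title claims. Both groups are taken to have received saline at day 4, so the controls carried both vehicles. The other 4 arrays hold RA-Dex (retinoic acid, then dexamethasone) and Dex (oil, then dexamethasone), and serve as a repeat of the retinoic acid comparison on arrays that the first does not use. The sources used here give neither strain, sex or doses nor the age at which lungs were taken. Nor do the labels say whether arrays a and b of a group stand for different animals, pooled animals or 1 RNA hybridized again, so a p-value below reflects the scatter between these arrays, which may be technical.

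Retinoic acid, through which vitamin A controls genes, is made from retinol by alcohol and retinaldehyde dehydrogenases, carried in cells by binding proteins and cleared by Cyp26 enzymes. It binds the receptors Rara, Rarb and Rarg, which sit on DNA as partners of the Rxr receptors, commonly at repeats of the hexamer AGGTCA. In newborn rodents it is known for promoting septation, the division of the primitive air sacs into alveoli, a process that dexamethasone blocks.

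The arrays resembled whole lung. Sftpc, the surfactant protein of alveolar type II cells, had signals of 72542 and 75237 on the RA arrays and 61592 and 84336 on the Dil arrays, and Scgb1a1, the secretory protein of airway club cells, had 43229 and 49672 on the RA arrays and 40353 and 52034 on the Dil arrays. Whole arrays did not sort by group. Log2 signals were compared across the 7309 probe sets tested below. RA arrays a and b correlated at 0.945 and Dil arrays a and b at 0.948. RA array b and Dil array a, from different groups, correlated at 0.959. Median signals lay between 327 and 330 on the RA arrays and between 325 and 341 on the Dil arrays. Because RNA came from whole tissue, fewer cells of a type and less RNA per cell cannot be told apart in any result that follows.

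Few transcripts differed beyond the spread between arrays. Of 7309 probe sets tested with limma, 2 changed between RA and Dil at an adjusted p under 0.05, which is 0.0274% of those tested. Inmt rose, and a probe set that the annotation assigns to 3 Sprr2a genes fell. The latter passed the signal filter only through its high signals on the Dil arrays. At an unadjusted p under 0.05 there were 277 higher and 307 lower probe sets, 3.79% and 4.2% of those tested. Both RA arrays lay above both Dil arrays in 17.7% of tested probe sets and below them in 15.9%. The median difference over all tested probe sets was 0.01 on the log2 scale. Of the genes given below, only Inmt and the Sprr2a probe set passed the threshold in RA against Dil, and every other difference is a value that did not pass it.

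Inmt encodes indolethylamine N-methyltransferase, an enzyme that transfers methyl groups to tryptamine and related amines and is known from lung. Its signals were 1919.9 and 2482 on the RA arrays, against 577 and 585 on the Dil arrays. Both RA arrays stood far above both Dil arrays, a rise of 3.76-fold (log2 difference 1.91 ± 0.18 SE, n = 2 each, limma adjusted p = 0.00484). After dexamethasone Inmt rose as well, by 4.25-fold, with signals of 3979 and 4502 on the RA-Dex arrays, against 1071 and 927 on the Dex arrays (2.09 ± 0.18, adjusted p = 0.00101). The difference between the effects without and with dexamethasone was -0.18 ± 0.26 and did not pass (adjusted p = 0.952). The Inmt call in RA against Dil did not hold when dim probe sets were kept (adjusted p = 0.0618) or when the variance had no intensity trend (0.0502).

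The 250 bases before the start of Inmt are shown because it is the only named gene whose level rose. They lie at chr6:55174991-55175240 on the minus strand (RefSeq, GRCm38.p6), with TATAAA, on this strand, in capitals at its 2 copies.
Inmt: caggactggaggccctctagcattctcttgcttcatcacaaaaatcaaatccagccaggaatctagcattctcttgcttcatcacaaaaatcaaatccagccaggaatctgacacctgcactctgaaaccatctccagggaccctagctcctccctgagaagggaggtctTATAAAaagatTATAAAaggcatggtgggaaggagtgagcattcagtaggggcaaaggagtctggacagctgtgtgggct
A stretch of 46 bases is followed at once by an exact copy of itself. TATAAA or its complement TTTATA was found in 14.3% of the 27025 genes with such a window. The hexamer AGGTCA or its complement TGACCT was not among its letters, and 15.8% of those genes have it. Of the 18 tested retinoic acid target genes listed below, 9 had a window and 0 of these held the hexamer.

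**Figure D1:**
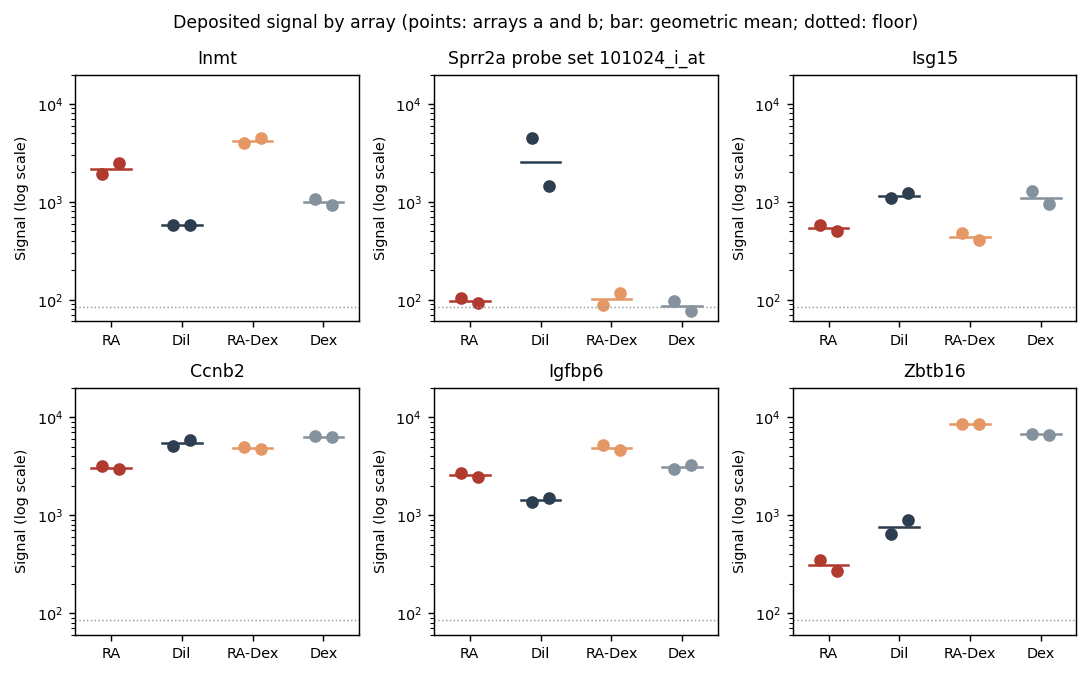
Deposited signal of 6 transcripts on each array, with RA left of Dil and RA-Dex left of Dex on a log axis; points are arrays a and b, bars the geometric mean and the dotted line the floor of 85.3. Inmt is higher with retinoic acid in both pairs of groups, Isg15 and Ccnb2 are lower in both, and the Sprr2a probe set is high on the Dil arrays alone.

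The Sprr2a probe set belongs to the small proline-rich proteins, which are cross-linked into the envelope of stratified squamous epithelium. It had 104 and 92.6 on the RA arrays, against 4484 and 1447 on the Dil arrays. The RA signals were close to the floor of 85.3, as were those of the RA-Dex arrays (88.9 and 117) and the Dex arrays (97.3 and 77.0). All of these lie under the filter of 200.8 on the mean signal. The probe set was therefore tested only through its high Dil signals, and its p is a description rather than independent support. RA against Dil fell by 4.70 ± 0.52 on the log2 scale (adjusted p = 0.0085), and this call did not hold when Dil replicate a was left out (adjusted p = 0.0772), when dim probe sets were kept (0.137) or when the variance had no intensity trend (0.0502). A second probe set of the same genes was lower as well, at 296 and 381 in RA, against 2368 and 950.1 in Dil (-2.16 ± 0.40, adjusted p = 0.14). The promoter windows of Sprr2a1 and Sprr2a2 on chromosome 3 are identical over all 300 bases, and signals of such near copies cannot be assigned to 1 gene.

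Other transcripts of squamous epithelium and skeletal muscle, neither of which is lung tissue, shared this pattern in part. Krt4, a keratin of oesophageal and oral lining, had 1372 and 899 in RA, against 4679.6 and 2553 in Dil. Krt6a, a keratin of stressed and oral epithelium, had 510.0 and 491 in RA, against 1885 and 980.5 in Dil. Sprr2b, which like its neighbours is measured by a probe set that can read related genes, had 638 and 527 in RA, against 2724 and 1411 in Dil. In all 3 the Dil arrays were above all 6 others, with log2 differences of -1.64 ± 0.33, -1.44 ± 0.30 and -1.76 ± 0.30 (adjusted p = 0.177, 0.178 and 0.137). Of 70 squamous genes listed, 51 were on the array and 24 were tested. Among the 24, 0 passed (4 lower and 0 higher at an unadjusted p under 0.05), and the median difference was -0.14. Both RA arrays were below both Dil arrays in 9 (37.5%, against 15.9% of all tested probe sets) and above in 1 (4.17%, against 17.7%). Summed over the 51 genes the signal was 54439 and 41886 in RA, against 56172 and 60640.1 in Dil, ranges that do not overlap. It was 54734 and 46535 in RA-Dex and 51239 and 55738 in Dex. Sprr1b makes up a large part of each sum and itself overlapped, with 29752.5 and 20762 in RA and 23413 and 32390 in Dil. Several defining markers were under the floor on all 4 arrays or nearly so: the basal keratin Krt14 did not exceed 42.0 and the basal keratin Krt15 did not exceed 19.6 on any of the RA and Dil arrays.

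Skeletal muscle transcripts gave a similar picture. Acta1, the actin of skeletal muscle, had 499 and 517 in RA, against 2198 and 1314 in Dil (-1.74 ± 0.80, adjusted p = 0.616). Myl1, a myosin light chain of fast fibres, had 487 and 509 in RA, against 1028 and 1099.9 in Dil (-1.10 ± 0.34). Tnnt1, the troponin T of slow fibres, had 932 and 830.4 in RA, against 1605 and 1368 in Dil (-0.75 ± 0.23), and another of its probe sets overlapped between the groups. Dil was the highest of the 4 groups in each. Of 53 genes listed, 42 were on the array and 20 were tested, with a median of -0.34. Of the 20, 0 passed (4 lower and 0 higher at an unadjusted p under 0.05). RA was below Dil in 10 (50%, against 15.9% of all tested probe sets) and above it in 2 (10%, against 17.7%). The summed signal of the 42 genes was 15712 and 13956 in RA, against 19449.6 and 20457 in Dil, with 15201 and 14318 in RA-Dex and 14202 and 13089 in Dex. The myosin heavy chain Myh2 did not exceed 20.2 on any of the RA and Dil arrays.

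**Figure D2:**
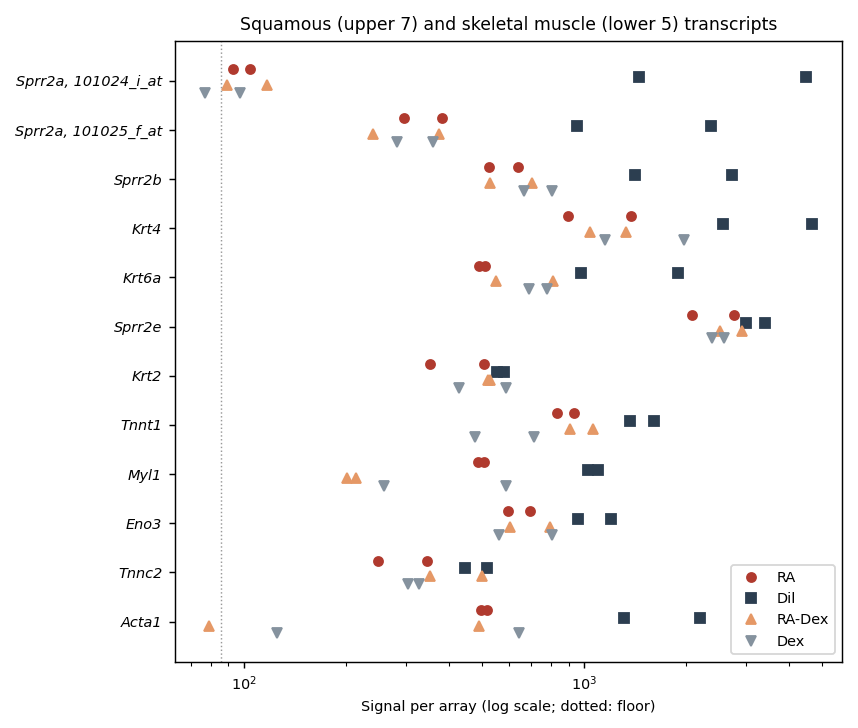
Signal on each of the 8 arrays, on a log axis, of both Sprr2a probe sets and the 10 squamous and skeletal muscle genes of smallest p among those with both RA arrays below both Dil arrays; the dotted line is the floor of 85.3. Dil squares lie to the right of all other symbols for the Sprr2a probe sets, Sprr2b, Krt4, Krt6a, Sprr2e, Tnnt1, Myl1, Eno3 and Acta1.

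The listed genes were then set apart from all others. Both Dil arrays were above all 6 others in 7 of 51 squamous genes (13.7%) and 9 of 42 skeletal muscle genes (21.4%). Over all 12422 probe sets this share was 4.75%, and over the 7309 tested 6.2%. The pattern was not particular to these lists. Higher shares were found for genes of heart muscle (40.7%), elastic fibre (33.3%), cholesterol (33.3%), interferon (28.6%) and cell cycle (25%). In other lists, such as neutrophil genes, the share was 0%. Both lists were written with earlier results of these data known, so their lower values in RA are a description and not a test. Among the 45 tested probe sets of genes in either list, 42.2% had RA below Dil and the median was -0.24. Among the 7264 others these values were 15.7% and 0.01, with 277 higher and 299 lower at an unadjusted p under 0.05. With so few probe sets set apart, the values over the others could hardly move. Of the calls, Inmt is outside both lists, and the Sprr2a probe set, itself a squamous transcript, counts as outside only because a probe set with several gene names belongs to no list.

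The retinoid pathway itself gave no change that passed the test. Of 6 receptors listed, 5 were on the array and 3 were tested. Rxrb had 4180.0 and 3348 in RA, against 2643 and 2600.4 in Dil (0.51 ± 0.26), and Rarg had 300.1 and 580.3 in RA, against 616 and 737 in Dil (-0.69 ± 0.34). The groups did not overlap in either, but neither difference passed (adjusted p = 0.664 and 0.642). Rxra overlapped between the groups, Rara and Rxrg were below the filter, and Rarb, whose own promoter is a textbook target of the receptors, was not analysed here. Of 8 binding and uptake proteins, 7 were on the array and only Rbp4 and Fabp5 were tested, both with overlapping groups. Crabp2, which hands retinoic acid to the receptors, was near or under the floor on every array, at 10.1 and 94.3 in RA and 72.2 and 52.5 in Dil, and the uptake receptor Stra6 was under it on all RA and Dil arrays.

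Of 19 enzymes of retinoid metabolism, 12 were on the array and 7 were tested, with a median of -0.06. RA was above Dil in 1 (14.3%, against 17.7% of all tested probe sets) and below it in 1 (14.3%, against 15.9%). Dhrs3, which reduces retinaldehyde back to retinol, had 1299.9 and 1589.9 in RA, against 1095 and 1220.4 in Dil (0.31 ± 0.18, adjusted p = 0.709). It was also higher in RA-Dex, with 1417 and 1336 in RA-Dex, against 1078 and 1060.1 in Dex (0.36 ± 0.18). The groups did not overlap in either pair, though neither difference passed. Adh1, which oxidizes retinol, had 9965 and 13153 in RA, against 13589 and 16564 in Dil (-0.39 ± 0.18), and the retinaldehyde dehydrogenase Aldh1a1 had 8257 and 9209 in RA, against 9414 and 8775 in Dil. Cyp26a1, which degrades retinoic acid and is among the most inducible targets, was below the filter, with 21.6 and 159.7 in RA and 79.5 and 126 in Dil.

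Of 37 genes listed as targets of retinoic acid, 24 were on the array and 18 were tested. None of the 18 passed in limma, 0 higher and 2 lower had an unadjusted p under 0.05, and the median was 0.02. RA was above Dil in 3 (16.7%, against 17.7% of all tested probe sets) and below it in 4 (22.2%, against 15.9%). The growth factor Mdk (midkine) had 5144 and 5942 in RA, against 7533 and 9344 in Dil (-0.60 ± 0.17, adjusted p = 0.36). The homeobox gene Hoxb5 had 706 and 701 in RA, against 1035 and 1064 in Dil (-0.58 ± 0.19). Its RA arrays, like those of Mdk, were the lower ones. Hoxb1, the homeobox gene of the hindbrain that receptors control directly, had 399 and 232 in RA, against 204 and 170.0 in Dil (0.71 ± 0.41), and the forkhead factor Foxa1 had 1110.1 and 782 in RA, against 671 and 682 in Dil. Tgm2, tissue transglutaminase, overlapped at 576 and 499 in RA and 513 and 462 in Dil.

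Genes of cell division were lower in RA than in Dil as a group, although none passed alone. Of 44 cell cycle genes listed, 40 were on the array and 34 were tested, and limma called 0 (17 lower and 0 higher at an unadjusted p under 0.05). Both RA arrays lay below both Dil arrays in 26 of the 34 (76.5%, against 15.9% of all tested probe sets) and above them in 0. The median log2 difference was -0.50, against 0.01 over all probe sets. Signals summed over the 40 genes were 40181 and 41651 in RA, against 55928 and 56419 in Dil.

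Ccnb2, a cyclin of mitosis, had 3158 and 2943 in RA, against 5119 and 5818 in Dil (-0.84 ± 0.14, adjusted p = 0.126). Cdk1, the kinase that such cyclins activate, had 1012 and 1146 in RA, against 1961 and 1727 in Dil (-0.77 ± 0.17). Plk1, a kinase of mitotic entry and spindle assembly, had 572 and 593 in RA, against 1008 and 1361 in Dil (-1.01 ± 0.20). In these 3 genes both RA arrays stood well below both Dil arrays, and the other tested probe sets of Plk1 gave -0.51 and -1.24. Mad2l1, of the spindle checkpoint, had 586 and 499 in RA, against 979 and 990.1 in Dil, and Kif20a, a kinesin of cytokinesis outside the list, had 672 and 764 in RA, against 1578 and 1393 in Dil. Mki67, the proliferation marker, named after its values were seen, had 497 and 572 in RA, against 1876 and 864 in Dil (-1.26 ± 0.31), with the Dil arrays far from each other and a second probe set at -0.16. Not every member took part: Mcm5 and Mcm4, of the replication helicase, and Aurkb, a mitotic kinase, overlapped between the groups, with differences of 0.06, -0.10 and 0.03 (named after their values were seen).

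The dexamethasone pair gave lower values for the same list on arrays that RA against Dil does not use. RA-Dex lay below Dex in 23 of the 34 genes, against 18.5% of all tested probe sets, and above it in 1 (Ccnd3, the D-type cyclin of lymphoid cells, named after its value was seen), against 16.3%. The median was -0.38, and 30 of the 34 were negative in both pairs. The sum over the 40 genes was 38723 and 38904 in RA-Dex, against 48188 and 47496 in Dex. Ccnb2 had 5029.7 and 4724 in RA-Dex, against 6437 and 6226 in Dex (-0.38 ± 0.14), and Cdk1 had 1617 and 1398 in RA-Dex, against 2053 and 1834 in Dex. Plk1 overlapped there, at 1034 and 912 in RA-Dex and 1041 and 962 in Dex. None of the 34 passed in this pair either.

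**Figure D3:**
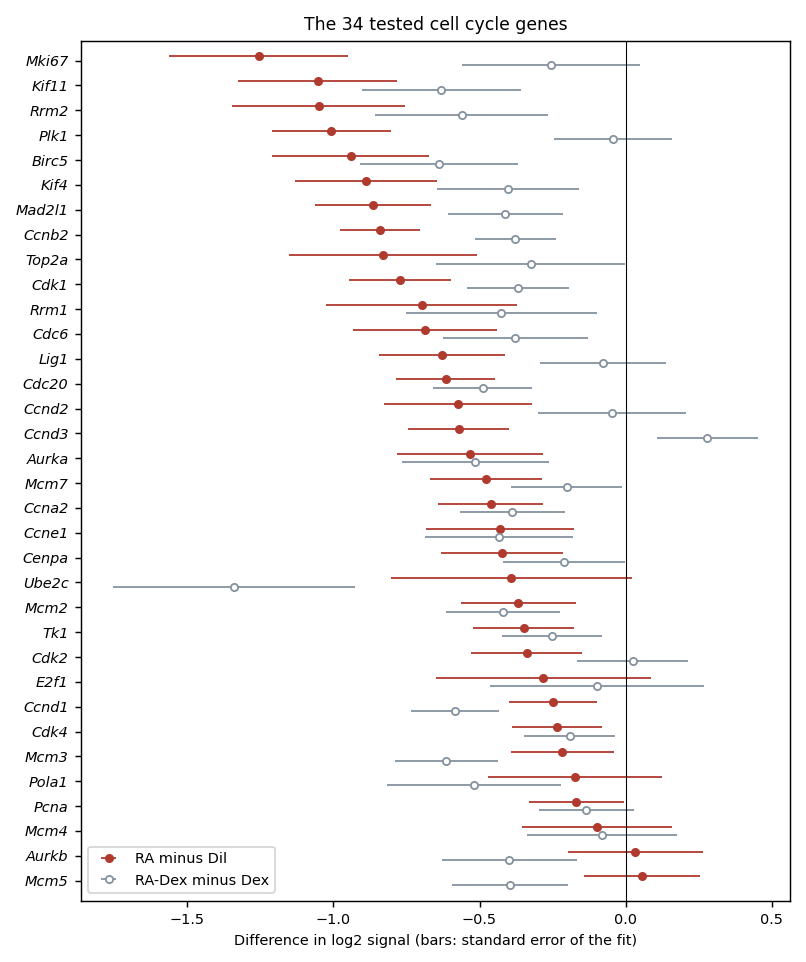
Log2 difference of RA minus Dil (filled) and of RA-Dex minus Dex (open) for the 34 tested cell cycle genes, ordered by the first; bars are standard errors of the fit and the vertical line marks no difference. In RA minus Dil 32 of 34 points lie left of the line, and 30 genes lie left of it in both comparisons.

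Promoters of genes expressed in mitosis are known to carry CCAAT boxes, and many also carry the element TTTGAA near the start. The 250 bases before the start of Ccnb2 (chr9:70421555-70421804, minus strand) and of Cdk1 (chr10:69352913-69353162, minus strand; both RefSeq, GRCm38.p6) are shown as examples that hold both motifs, which 8 of the 29 windows of tested cell cycle genes do. They were chosen after the motif counts were seen, and Plk1, whose p lay between theirs, holds CCAAT alone. Capitals mark CCAAT or ATTGG, and TTTGAA or TTCAAA.
Ccnb2: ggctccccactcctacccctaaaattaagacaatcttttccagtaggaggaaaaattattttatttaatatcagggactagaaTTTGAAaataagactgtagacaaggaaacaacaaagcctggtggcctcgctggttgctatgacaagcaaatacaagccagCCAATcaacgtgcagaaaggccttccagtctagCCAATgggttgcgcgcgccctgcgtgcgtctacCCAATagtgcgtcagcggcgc
Cdk1: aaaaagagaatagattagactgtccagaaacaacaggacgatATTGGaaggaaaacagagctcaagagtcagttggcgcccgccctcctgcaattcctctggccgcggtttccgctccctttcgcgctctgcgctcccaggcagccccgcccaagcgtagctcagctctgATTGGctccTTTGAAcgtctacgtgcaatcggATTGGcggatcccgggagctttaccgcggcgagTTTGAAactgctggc
Each holds 3 copies of the first motif, and of the second Ccnb2 holds 1 and Cdk1 2. The TTTGAA of Ccnb2 lies upstream of all 3 CCAAT copies and not near the start, since the search took any position. Of the 34 tested cell cycle genes 29 had such a window. CCAAT, on either strand, was found in 21 of the 29 (72.4%), against 37.5% of all 27025 genes with a window, and TTTGAA in 8 (27.6%), against 18.3%. In these windows no copy of 1 motif overlaps a copy of the other, and a match is a description of these windows alone. A high share of CCAAT was not particular to the cell cycle list. Among tested retinoic acid target genes, 7 of 9 windows (77.8%) held CCAAT and 1 (11.1%) held TTTGAA.

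Genes induced by interferon had negative medians in both pairs of groups, and none passed. Isg15, a ubiquitin-like protein conjugated to others in the antiviral response, had 581 and 501 in RA, against 1104 and 1222 in Dil (-1.11 ± 0.22, adjusted p = 0.177). In the other pair it had 482 and 406 in RA-Dex, against 1277 and 959 in Dex (-1.32 ± 0.22, adjusted p = 0.0737). The groups were apart in both pairs, yet neither difference passed. Of 25 genes listed, 21 were on the array and 13 were tested. Limma called 0 in RA against Dil (2 lower and 0 higher at an unadjusted p under 0.05), and the median was -0.31. There 7 lay below Dil (53.8%, against 15.9% of all tested probe sets) and 0 above (against 17.7%). In RA-Dex against Dex 9 lay below (against 18.5% of tested probe sets) and 0 above (against 16.3%), with a median of -0.45. The interferon regulatory factor Irf1 had 1272 and 995 in RA, against 1561 and 1749.7 in Dil, and the immunoproteasome subunit Psmb8 had 1029 and 976 in RA, against 1327 and 1246 in Dil. Mx1, Cxcl9 and Cxcl10, which interferon induces steeply and which are named after their values were seen, stayed near or under the floor on the RA and Dil arrays.

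The list of cholesterol synthesis and uptake had a median of -0.30 in both pairs. Of its 12 tested genes 5 lay below Dil (41.7%, against 15.9% of all tested probe sets) and 0 above (against 17.7%). Of the 12, 0 passed (3 lower and 0 higher at an unadjusted p under 0.05). Sqle, the squalene epoxidase, had 1105 and 1214 in RA, against 1949.8 and 1512 in Dil (-0.57 ± 0.19), and 688 and 699.7 in RA-Dex, against 1051 and 1014 in Dex. Fdps, the farnesyl diphosphate synthase, had 475 and 1943 in RA, against 2354 and 2924 in Dil (-1.45 ± 0.47, adjusted p = 0.457). A second probe set gave -0.58. The RA arrays of the first were far apart, so the difference rested on single arrays: it was -0.43 without RA replicate a (adjusted p = 0.76) and -2.47 without RA replicate b (adjusted p = 0.00301). Scd1, the stearoyl-CoA desaturase of fatty acid synthesis, stood on the other side, with 10616 and 10196 in RA, against 5784 and 6082 in Dil (0.81 ± 0.16, adjusted p = 0.166), while a second probe set overlapped.

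**Figure D4:**
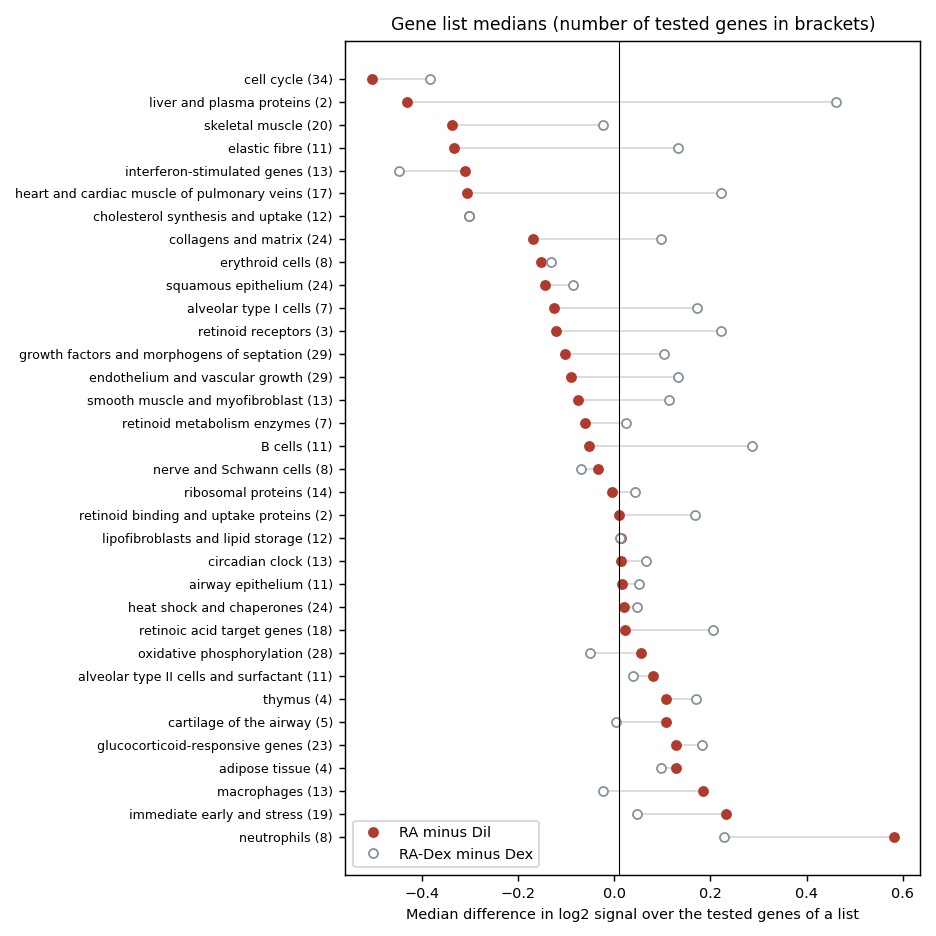
Median log2 difference over the tested genes of 34 lists (all but the sex-linked genes), for RA minus Dil (filled) and RA-Dex minus Dex (open), with the number of tested genes in brackets; the vertical line is the median of all 7309 probe sets in RA minus Dil, 0.01. The cell cycle list has the lowest median in RA minus Dil (-0.50) and the neutrophil list the highest (0.58) of those plotted.

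Markers of blood cells gave differences that did not pass. Among neutrophil genes 5 of 8 tested lay above Dil (62.5%, against 17.7% of all tested probe sets) and 0 below (against 15.9%). Of the 8, 0 passed (4 higher and 0 lower at an unadjusted p under 0.05), and the median was 0.58. Ngp, a granule protein, had 342 and 429 in RA, against 196 and 113 in Dil, and the calcium-binding protein S100a8 had 3149.7 and 3301 in RA, against 2245 and 1250.0 in Dil. The summed signal of the 13 neutrophil genes on the array was 11221 and 11793 in RA, against 8721 and 7455 in Dil, while the granule enzyme Mpo (named after its values were seen), at 175 and 133 in RA and 169.7 and 137 in Dil, overlapped. Of 13 tested macrophage genes 6 lay above Dil (46.2%, against 17.7%) and 1 below (7.69%, against 15.9%). Mpeg1, the pore-forming perforin-2, had 2394 and 2243 in RA, against 1422 and 1099 in Dil (0.89 ± 0.22). The part of these cells in the other differences was not tested.

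Of 8 tested erythroid genes 4 lay below Dil (50%, against 15.9% of all tested probe sets) and 0 above (against 17.7%). Alas2, the first enzyme of haem synthesis in red cells, had 3092 and 4317 in RA, against 4754 and 6576 in Dil, and Slc4a1, the anion exchanger of their membrane, had 706 and 406 in RA, against 1118 and 1068 in Dil. Bpgm, which makes bisphosphoglycerate in red cells and lies outside the list, had 1601 and 2279 in RA, against 4109 and 3840.4 in Dil (-1.06 ± 0.19, adjusted p = 0.137), and 3086 and 2659 in RA-Dex, against 4307 and 3866 in Dex. In each of the 3 the RA arrays were the lower ones. The erythroid sums were 86939 and 84709 in RA, against 89370.5 and 107593 in Dil, and the part of red cell precursors in the lower cell cycle values was not tested. Of 11 B cell genes 3 (27.3%) lay on each side. The 3 lower ones belong to antigen presentation by class II molecules, among them the invariant chain Cd74, with 5887 and 5896 in RA, against 7761 and 9965 in Dil (-0.58 ± 0.15).

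Structural genes of the septating lung mostly had negative differences in RA against Dil, without passing. Of 11 tested elastic fibre genes 7 lay below Dil (63.6%, against 15.9% of all tested probe sets) and 3 above (27.3%, against 17.7%). Of the 11, 0 passed (4 lower and 1 higher at an unadjusted p under 0.05). The median was -0.33, against 0.13 in RA-Dex minus Dex. Ltbp2, which binds the elastic microfibrils, had 1142 and 1321 in RA, against 2202 and 1935 in Dil (-0.75 ± 0.17, adjusted p = 0.255), and 2276 and 1913 in RA-Dex, against 2023 and 1909 in Dex. Eln, elastin itself, overlapped at 47609 and 43079 in RA and 39709 and 51797 in Dil, and its second probe set gave -0.38. Of 13 smooth muscle genes 5 lay below Dil (38.5%, against 15.9%) and 0 above (against 17.7%). Myh11, the smooth muscle myosin, had 1943 and 2387 in RA, against 3115 and 3102 in Dil. Markers of heart muscle, which in mice also sheathes the pulmonary veins, were lower along with them. There 12 of 17 lay below Dil (70.6%) and 2 above (11.8%), with a median of -0.31 (0.22 in RA-Dex minus Dex). The sum over 27 heart muscle genes was 28696 and 29466 in RA, against 34586 and 36157 in Dil. Their part in these differences was not tested.

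Among 29 growth factors and morphogens of septation, 0 passed (5 lower and 2 higher at an unadjusted p under 0.05). Of the 29, 12 lay below Dil (41.4%, against 15.9% of all tested probe sets) and 5 above (17.2%, against 17.7%). Igfbp6, a carrier of insulin-like growth factors, had 2677 and 2431 in RA, against 1374 and 1502 in Dil (0.83 ± 0.15, adjusted p = 0.14). It was also higher in RA-Dex, with 5170.4 and 4596 in RA-Dex, against 2933 and 3267 in Dex. Its relatives Igfbp2 and Igfbp4 were on the other side, Igfbp2 with 1259 and 1300.2 in RA, against 2134 and 2071 in Dil, and Igfbp4 with 2917 and 2887 in RA, against 4329 and 4392 in Dil, although a second probe set of Igfbp4 gave 0.07, with both RA arrays slightly above both Dil arrays. Fgfr2, a receptor of fibroblast growth factors in the epithelium, had 4869.5 and 5648 in RA, against 3579.8 and 3100.5 in Dil, while its other tested probe sets gave -0.02 and -0.47. Pdgfa, which drives the myofibroblasts of the septa, overlapped at 4012 and 4026 in RA and 3451 and 4109.8 in Dil, and its receptor Pdgfra had 2452 and 1849 in RA, against 2963 and 2828 in Dil (-0.44 ± 0.17; a second probe set overlapped, at -0.11). Fgf18 had 392 and 399 in RA, against 455 and 546 in Dil. Kdr, the receptor of vascular endothelial growth factor, had 2178 and 1879 in RA, against 1765 and 1605 in Dil (0.27 ± 0.17, adjusted p = 0.767).

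Epithelial lists had medians near 0 or slightly below. The 11 tested genes of type II cells and surfactant had a median of 0.08, and the 11 of the airway had a median of 0.02. Of the type II genes 2 lay above Dil (18.2%, against 17.7% of all tested probe sets) and 0 below (against 15.9%). The 7 tested type I genes had a median of -0.12, with 1 above Dil (14.3%), 1 below (14.3%) and 4 of 7 negative. Among them Emp2, a membrane protein, overlapped, and Igfbp2, given above, was below Dil. Hopx, a homeodomain protein of type I cells, had 15352 and 14939.7 in RA, against 11957 and 9595 in Dil (0.50 ± 0.13, adjusted p = 0.323). Muc1, a membrane mucin, had 11549.7 and 11584 in RA, against 8141 and 9821 in Dil, and 7354 and 6898 in RA-Dex, against 5595 and 5985 in Dex. None of these differences passed.

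The remaining lists served as checks of other tissues and of general functions, and none of their genes passed. Medians in RA minus Dil were -0.17 for 24 collagen and matrix genes, -0.09 for 29 endothelial genes, 0.01 for 12 genes of lipofibroblasts, 0.02 for 13 clock genes, 0.02 for 24 chaperones, 0.05 for 28 genes of oxidative phosphorylation and close to 0 for 14 ribosomal proteins. RA was above Dil in 3.45% of the endothelial genes, 33.3% of the chaperones and 32.1% of the oxidative phosphorylation genes, against 17.7% of all tested probe sets. It was below Dil in 24.1%, 12.5% and 7.14% of them, against 15.9%. Of tissues that dissection could carry along, cartilage had a median of 0.11 over 5 tested genes, thymus 0.11 over 4, nerve -0.03 over 8 and liver -0.43 over only 2. Adipose tissue had a median of 0.13 over 4, and the sum over its 12 genes on the array was 13637 and 12654 in RA, against 8516 and 8859 in Dil, a sum that includes Scd1.

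Other genes of small p among the higher ones included acute phase, immediate early and signalling genes. Serpina3n, an acute phase protease inhibitor, had 1261 and 1119.6 in RA, against 501 and 129 in Dil (2.22 ± 0.48, adjusted p = 0.206), with the Dil arrays far apart. The difference was 3.20 without Dil replicate a (adjusted p = 0.00317) and 1.25 without Dil replicate b (adjusted p = 0.292). Fos, the immediate early transcription factor, had 833 and 859 in RA, against 519 and 383 in Dil (0.92 ± 0.19, adjusted p = 0.178). Of 19 immediate early and stress genes 9 lay above Dil (47.4%, against 17.7% of all tested probe sets) and 0 below (against 15.9%). Of the 19, 0 passed (3 higher and 0 lower at an unadjusted p under 0.05), and the median was 0.23. Tyk2, a kinase of cytokine receptors, had 529 and 592 in RA, against 223 and 135 in Dil (1.69 ± 0.31). Erdr1, which lies in the region that the sex chromosomes share, had 14029 and 12291 in RA, against 7064 and 8363 in Dil (0.77 ± 0.16), and a second probe set overlapped. Both Tyk2 and Erdr1 had RA above Dil on every array, without passing.

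Zbtb16 had the smallest adjusted p among named genes that were lower in RA. This zinc-finger factor, a known glucocorticoid target, had 349.6 and 268 in RA, against 642 and 892 in Dil (-1.31 ± 0.20, adjusted p = 0.114). The sulfotransferase Sult1a1 had 71.8 and 105 in RA, with array a under the floor, against 210.4 and 242 in Dil. Neither gene was lower in RA-Dex than in Dex, where their differences were 0.35 and 0.18. The 23 tested glucocorticoid-responsive genes went both ways, 8 above Dil (34.8%, against 17.7% of all tested probe sets) and 3 below (13.0%, against 15.9%). Mxd3, a repressor in the Max network of proliferation control, had 213 and 129.5 in RA, against 577 and 604 in Dil, Phf7, a reader of histone marks, had 531 and 535 in RA, against 1067 and 1137 in Dil (a second probe set overlapped, at -0.25), Itih5, of the hyaluronan-binding inhibitor family, had 249 and 237 in RA, against 476 and 556 in Dil, and the imprinted gene Mest had 2106 and 2153 in RA, against 3874 and 3362 in Dil. On the probe sets whose values are given, all 4 had both RA arrays below both Dil arrays without passing.

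Beyond Inmt, the effects of retinoic acid without and with dexamethasone were compared across the whole array. Over the 7309 probe sets the differences RA minus Dil and RA-Dex minus Dex, which share no arrays, correlated at 0.05 across probe sets, which are not independent replicates, and 50.1% had the same sign. Under an unadjusted p of 0.05 in both were 58 probe sets, of which 44 had the same sign, 15 higher and 29 lower. These are 7.53% of the 584 with such a p in RA against Dil and 14.6% of the 302 in RA-Dex against Dex. Inmt and Igfbp6 are among the higher, and Ccnb2, Kif20a, Isg15, Bpgm and Alas2 among the lower. Both comparisons came from the same fit and share its spread for each probe set, so a low spread gives a small p in both. The overlap is therefore not independent, and no test of it was made. In RA-Dex against Dex 7 probe sets changed (0.0958%), 4 higher (0.0547%) and 3 lower (0.041%), while 1.68% were higher and 2.45% lower at an unadjusted p under 0.05. The effect differed between the pairs in 1 probe set (0.0137%), of Erdr1, with 5.6% at an unadjusted p under 0.05. Ercc1, of DNA repair, fell to 158 and 171 in RA-Dex, against 694 and 552 in Dex (-1.91, adjusted p = 0.0154). It did not pass in RA against Dil, where it had 747 and 731 in RA, against 530.3 and 427 in Dil.

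**Figure D5:**
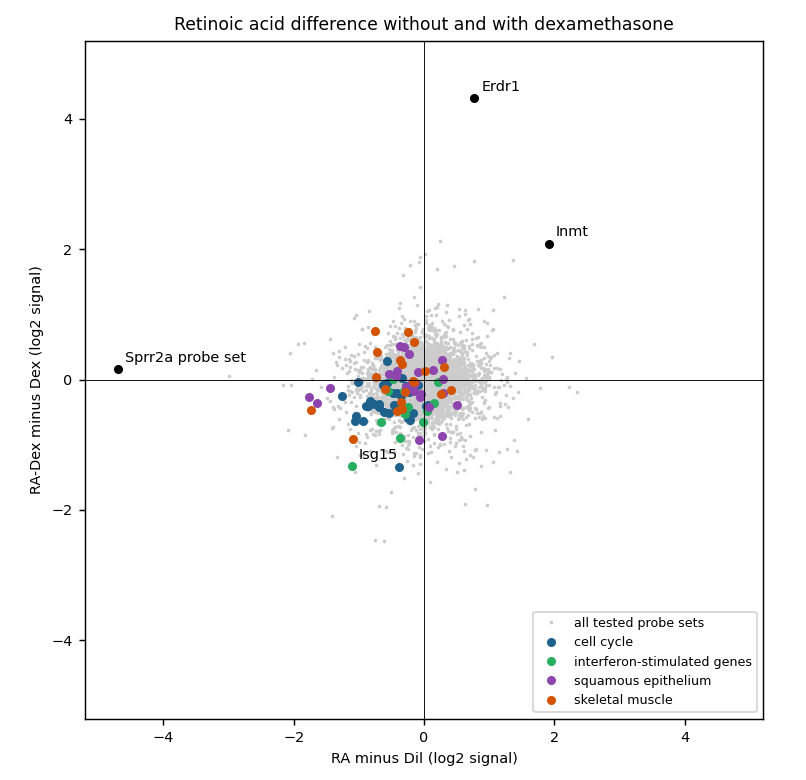
Difference in log2 signal for RA minus Dil (horizontal) and RA-Dex minus Dex (vertical), with 1 point for each of the 7309 tested probe sets and 4 gene lists in colour. Inmt lies at 1.91 and 2.09, the Sprr2a probe set at -4.70 and 0.16, and cell cycle genes lie mostly to the lower left of the origin.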

How the data were processed

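Total RNA of whole frozen mouse lung was hybridized to 8 Affymetrix arrays, 2 in each of 4 groups. The deposited values are 1 intensity per probe set and array, on a linear scale. Each array's mean without the 2% of values at each end was about 800.4, the same on all arrays, as after scaling to a common target. The sources used here do not give how the authors scaled, background-corrected or summarized the probes, nor the number of pixels or reads behind a value. The 2 arrays per group limit the precision.

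The 12488 probe sets were reduced to 12422 by leaving out 66 controls. Signals were floored at 85.3 (the 25th percentile over all arrays) and put on the log2 scale, with no further normalization, and 7309 probe sets whose mean exceeded 200.8 (the 40th percentile) were tested. All 8 arrays entered 1 limma fit (lmFit and eBayes with an intensity trend, limma 3.58.1, R 4.3.3), with contrasts RA minus Dil, RA-Dex minus Dex and their difference, and Benjamini-Hochberg adjustment over the 7309. The floor understates differences of dim genes. The calculation was tested on simulated data with 100 probe sets changed by 1 and 100 changed by 2 on the log2 scale. It called 35% and 79% of these, 114 in all, and made 14 false calls. A change of 1 therefore often went uncalled. A gene in a list is its probe set of highest mean signal, and sums are of unfloored signals over all genes of a list on the array.

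Symbols come from the platform annotation of 2016: 10833 probe sets have 1 symbol, 396 several and 1193 none, and 10817 were matched by gene ID to RefSeq on GRCm38.p6. Named are the genes past the threshold, otherwise the 10 of smallest p in each direction and in the squamous and skeletal lists, up to 4 genes of each list by p, all measured retinoid genes, and 12 genes picked by name. Where a gene lies outside this rule, the text says that it was named after its values were seen, except for markers that check a tissue. The comparison, the gene lists and the naming rule were chosen with earlier results of these data known, so no p is given for a list. Alternatives were 2 normalizations (quantile, cyclic loess), keeping dim probe sets or a stricter filter, a pseudocount of 50 in place of the floor, no trend, a robust variance model, the array letter as a block, the 4 arrays alone, gene means and leaving out each array. Arrays of the same letter deviated from their group means with correlations between -0.22 and 0.14. These were positive for RA with RA-Dex (0.10) and for Dil with Dex (0.14), and negative for the other pairs. The letters therefore mark no pairing common to all groups, and a grouping of arrays across letters was not tested.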

Additional observations from a re-analysis of the deposited data

Results flagged for a closer look

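Erdr1, a gene of the region that the sex chromosomes share, was the only probe set whose retinoic acid effect differed between the pairs of groups in a test of the difference. It had 14029 and 12291 in RA, against 7064 and 8363 in Dil (log2 difference 0.77, limma adjusted p = 0.178), and 5591 and 5723 in RA-Dex, against 259 and 307 in Dex (4.32, adjusted p = 2.33e-07). The Dex arrays are the 2 that stand apart from the other 6. The effect without dexamethasone minus that with it was -3.55 on the log2 scale (adjusted p = 6.8e-05). A second probe set of the gene had 818 and 452 in RA, against 529 and 503 in Dil, and gave -0.05 for RA-Dex minus Dex.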

How the results depend on the processing

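Of 149 named probe sets, 0 called values changed sign under the alternatives, 6 gained and 2 lost a call under at least 1. The count in RA against Dil, 2, was 11 with no filter, 1 with a stricter filter, 1 with gene means and 0 in limma with no intensity trend (563 at an unadjusted p under 0.05, smallest adjusted p = 0.0502), and 2 to 16 when 1 array was left out (16 without RA replicate b, 5 without Dil replicate a, 5 without Dil replicate b, 3 without RA replicate a). Outside the squamous and skeletal lists the 2 were 11, 1, 1 and 0 under the same settings, and 2 to 16. The count in RA-Dex against Dex, 7, was 16 with no filter, 3 with no trend, 3 with gene means and 2 to 7 with an array left out. The difference between the effects, 1, was 22 with no filter, 0 with gene means (312 of 5393 at an unadjusted p under 0.05, smallest adjusted p = 0.0823) and 1 to 2 with an array left out. Array letters marked no pairing common to all groups, and with the replicate block 2 probe sets passed in RA against Dil. The 11 probe sets called with no filter in RA against Dil included neither Inmt nor the Sprr2a probe set. Without filter the median was -0.44 for cell cycle genes, -0.24 for interferon genes and -0.36 for cholesterol genes. With an array left out these ranged from -0.54 to -0.45, from -0.39 to -0.31 and from -0.35 to -0.19, the squamous median from -0.25 to -0.14 and the skeletal muscle median from -0.42 to -0.25. The cause of these shifts was not tested. Calls gained with an array left out, where a lone array is assumed to vary like the other groups, include Bpgm (-1.31, adjusted p = 0.0188) without RA replicate b, Mybpc3 (-2.70, 0.0184) without RA replicate a, Zbtb16 (-1.54, 0.0446) without Dil replicate a and Sprr2b (-2.23, 0.0274) without Dil replicate b. Quantile and loess normalization, the pseudocount, the robust model and the 4 arrays alone left the same 2 calls. The 2 arrays per group and dim signals limit all of this.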

Other observations

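Xist, the RNA that coats the inactive X chromosome, had 876 and 742 in RA, against 324 and 401 in Dil, and 419 and 936 in RA-Dex, against 727 and 950.2 in Dex. The RA and Dil arrays did not overlap, and the difference did not pass (log2 1.16, adjusted p = 0.398). Eif2s3y, a gene of the Y chromosome, overlapped between the groups, with 120 and 263 in RA and 365 and 122 in Dil (log2 -0.25). The sources used here do not give the sex of the mice, and the part of sex in the differences of RA from Dil was not tested.

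Over the whole array 28 probe sets, chosen after seeing the data, had both Dil arrays at 1.5 times or more of the highest other array, and 5 of them belong to the squamous and skeletal lists. By the same measure 23 probe sets stood out on the RA arrays.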
